A study of Mus musculus with 59 samples.

Results

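Liver chromatin from fasted mice was compared for a repressor, BCL6, and an activator, PPARα, by asking where the called ChIP-seq peaks of each factor coincided and where each stood alone. The mice were male wild-type C57BL/6 animals deprived of food overnight, with 3 replicates for BCL6 and 3 for PPARα, so that both groups share genotype, sex and feeding state. Each peak list combines the 3 replicates of its group, so the lists carry no error between replicates, and the age of the mice is not in the labels. Whole liver was used, and a peak cannot be assigned to hepatocytes or to another liver cell. In fasted liver 9613 BCL6 peaks, each 210 bp wide, and 29085 PPARα peaks, each 222 bp wide, were called, together 38698 of the 102931 peaks in the 7 lists of the series. A pair of peaks was counted as shared when the centers lay within 200 bp of each other, and all remaining peaks were called BCL6-specific or PPARα-specific. The fed BCL6 and PPARα lists and both PPARδ lists, from livers of the same strain and genotype, served only to describe these fasted peaks further.

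BCL6 is a zinc finger repressor best known from germinal center B cells, where it recruits the corepressors SMRT and NCoR with the histone deacetylase HDAC3. PPARα is a nuclear receptor for fatty acids that binds as a heterodimer with RXR to a direct repeat called DR1, and in fasting liver it activates fatty acid oxidation and ketone body synthesis.

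Short windows at peak centers show what the classes look like in sequence. All windows are on the plus strand of mm10, were read from the RefSeq assembly of that build, and lie outside annotated exons. Capitals mark matches to the BCL6 element TTCCTAGAA with at most 1 mismatch and to DR1 with at most 2 mismatches, where DR1 is AGGTCA repeated in the same direction with a spacer of 1 bp, each on either strand. The first windows are shared peaks that hold both elements, near *Bcl6* itself, near *Bdh1*, which encodes the last enzyme of ketone body synthesis, near the mitochondrial ribosomal gene *Mrpl45* and near the proteasome gene *Psmb6*:
Bcl6 chr16:23996492-23996592: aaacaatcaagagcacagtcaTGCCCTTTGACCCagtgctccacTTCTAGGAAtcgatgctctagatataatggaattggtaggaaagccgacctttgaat
Bdh1 chr16:31399316-31399416: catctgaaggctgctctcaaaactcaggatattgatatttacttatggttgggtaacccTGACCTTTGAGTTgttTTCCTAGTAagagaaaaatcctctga
Mrpl45 chr11:97331291-97331391: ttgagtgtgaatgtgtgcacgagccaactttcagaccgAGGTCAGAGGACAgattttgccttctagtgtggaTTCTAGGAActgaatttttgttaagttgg
Psmb6 chr11:70523412-70523512: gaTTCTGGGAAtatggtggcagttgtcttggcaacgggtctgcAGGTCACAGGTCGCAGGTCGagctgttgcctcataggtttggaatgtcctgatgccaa
The next windows are BCL6-specific peaks with a BCL6 element, in the promoter of the proteasome gene *Psmd3*, where 2 exact copies occur, in an intron of the clock repressor gene *Cry1*, and upstream of *Mrpl1*:
Psmd3 chr11:98682415-98682515: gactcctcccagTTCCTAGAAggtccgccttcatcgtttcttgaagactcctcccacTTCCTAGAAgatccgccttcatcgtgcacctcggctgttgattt
Cry1 chr10:85183688-85183788: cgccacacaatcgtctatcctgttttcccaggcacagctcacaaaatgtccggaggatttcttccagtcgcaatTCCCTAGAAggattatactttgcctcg
Mrpl1 chr5:96207048-96207148: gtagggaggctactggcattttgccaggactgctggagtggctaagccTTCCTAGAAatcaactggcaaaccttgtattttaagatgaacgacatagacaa
The last windows are PPARα-specific promoter peaks with DR1 at genes of fatty acid oxidation, the electron transfer flavoprotein gene *Etfa*, the carnitine acyltransferase gene *Cpt1b* and the acyl-CoA thioesterase gene *Acot2*:
Etfa chr9:55512265-55512365: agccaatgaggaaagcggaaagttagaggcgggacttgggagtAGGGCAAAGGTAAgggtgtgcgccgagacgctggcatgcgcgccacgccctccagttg
Cpt1b chr15:89426031-89426131: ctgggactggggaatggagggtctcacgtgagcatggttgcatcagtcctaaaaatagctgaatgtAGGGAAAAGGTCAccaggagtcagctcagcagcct
Acot2 chr12:83987313-83987413: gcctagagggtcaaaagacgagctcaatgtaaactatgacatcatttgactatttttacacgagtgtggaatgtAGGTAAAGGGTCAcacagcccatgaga
In the *Etfa*, *Cpt1b* and *Acot2* windows a fed PPARα peak was also called, and none of them held a fed BCL6 peak. All shared and BCL6-specific windows printed here held a fed BCL6 peak. Fasted PPARδ peaks were called at the *Bdh1*, *Etfa* and *Acot2* windows and at none of the others.

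Most fasted BCL6 peaks sat on a PPARα peak, whereas most PPARα peaks had no BCL6 peak beside them. Of the 9613 BCL6 peaks, 7736 (80.5%, 95% Wilson interval 79.7% to 81.3%) had a PPARα peak within 200 bp. Of the 29085 PPARα peaks, the same 7736 pairs made up 26.6% (26.1% to 27.1%), which left 21349 PPARα-specific and 1877 BCL6-specific peaks. No peak matched more than 1 peak of the other factor. The intervals cover counting error only, and peaks are not replicates of a condition.

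The centers of shared pairs were close. Their median distance was 29 bp, 73.9% lay within 50 bp and 94.2% within 100 bp. Few pairs lay near the limit, with 104 BCL6 peaks at 151 to 200 bp from a PPARα center and 45 at 201 to 250 bp. The BCL6-specific peaks had a median distance of 6571 bp to the nearest PPARα center, and 20.8% of them had a PPARα center within 1000 bp. The share of BCL6 peaks with a BCL6 element was 6.76% (5.97% to 7.64%) where the PPARα center was at most 25 bp away. It was 26.9% (23.9% to 30.0%) where no PPARα center lay within 10 kb. The share with DR1 went the other way between these ends, from 7.85% to 4.60%, but did not fall steadily. It was 0.962% at 151 to 200 bp, 2.44% at 501 to 1000 bp and 4.55% at 1001 to 10000 bp.

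**Figure D1:**
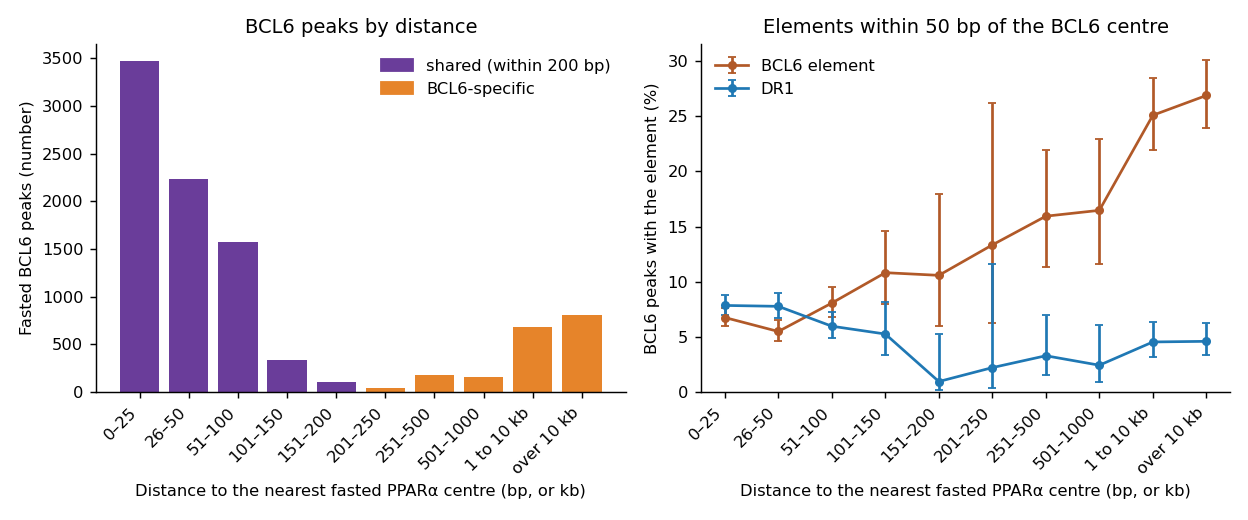
Fasted BCL6 peaks by distance from their center to the nearest fasted PPARα center. The left panel gives the number of BCL6 peaks per distance bin, with the bins within 200 bp as shared, and the right panel gives the share of peaks with a BCL6 element or DR1 in 100 bp at the BCL6 center, with 95% Wilson intervals, where the BCL6 element runs from 6.76% in the nearest bin to 26.9% in the farthest.

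The shared part of BCL6 peaks was of similar size along the genome, while that of PPARα peaks varied more. On single chromosomes between 75.2% (chromosome X) and 83.5% (chromosome 19) of BCL6 peaks were shared, with a median of 80.7% over 20 chromosomes. Among PPARα peaks the shared part ran from 16.0% on chromosome X to 31.6% on chromosome 13. Peaks of a class also had neighbors of their own class, since 41.6% of shared peaks and 49.9% of PPARα-specific peaks had another of that class within 10 kb. For BCL6-specific peaks this share was 6.71%. These shares depend on the sizes of the classes, which hold 7736, 21349 and 1877 peaks, and are not comparable between them.

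PPARα-specific peaks were far more often at promoters than shared peaks. Peak centers up to 1000 bp before or 100 bp after a RefSeq transcription start site (TSS) were assigned to promoters. Promoters held 4043 of 21349 PPARα-specific peaks (18.9%, 18.4% to 19.5%) and 382 of 7736 shared peaks (4.94%, 4.48% to 5.44%), for an odds ratio of 0.222. The two-sided exact test of Fisher returned p = 1.74e-227, or 1.65e-226 after Benjamini-Hochberg adjustment over 19 comparisons of classes. The promoter share was higher for PPARα-specific than for shared peaks on 20 of 20 chromosomes. Outside promoters, introns held 49.3% of shared and 44.3% of PPARα-specific peaks, and intergenic sequence held 43.1% and 31.9%. The median distance to the nearest coding TSS was 24224.5 bp for shared and 13234 bp for PPARα-specific peaks.

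BCL6-specific peaks were also mostly distal. Their promoter share was 5.17% (97 of 1877, 4.25% to 6.26%) against 4.96% (384 of 7736, 4.50% to 5.47%) for shared peaks counted at the BCL6 center. The odds ratio of shared to BCL6-specific peaks was 0.958 and did not pass the test (adjusted p = 0.723), with overlapping intervals. With a limit of 100 bp for shared pairs the shares were 5.90% for BCL6-specific and 4.72% for shared peaks (odds ratio 0.790, exact p = 0.0251), and with 400 bp the direction turned, at 4.60% and 5.09% (odds ratio 1.11, exact p = 0.427).

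**Figure D2:**
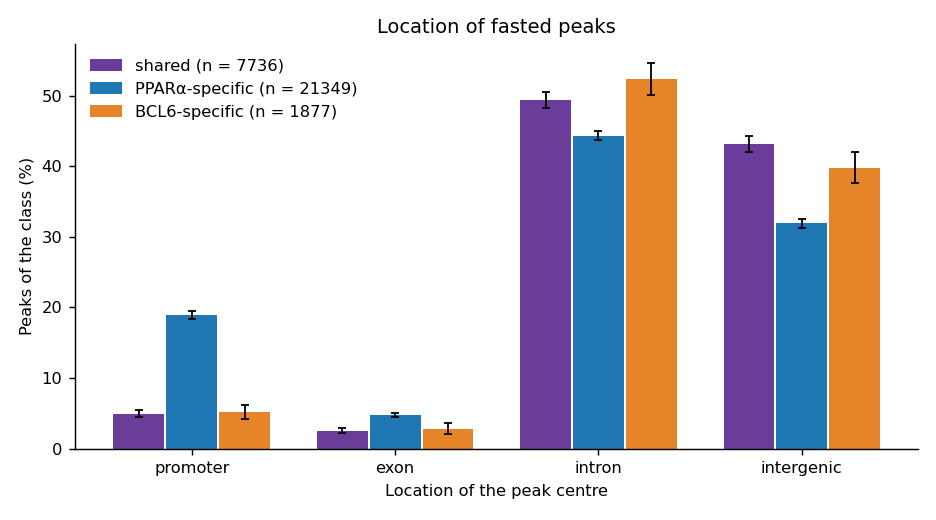
Share of each class of fasted peaks whose center lies in a promoter, exon, intron or intergenic sequence, with 95% Wilson intervals and shared peaks counted at the PPARα center. Promoters hold 18.9% of PPARα-specific peaks against 4.94% of shared and 5.17% of BCL6-specific peaks.

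The kind of promoter differed as well. Promoters were called high-CpG when a window of 500 bp between 900 bp upstream and 600 bp downstream of the TSS had a CpG observed to expected ratio of at least 0.75 and a GC content of at least 55%, and low-CpG when no such window reached a ratio of 0.48. High-CpG promoters belong mainly to broadly expressed genes, and low-CpG promoters to tissue-restricted ones. Of the PPARα-specific promoter peaks, 74.2% (72.8% to 75.5%) were at high-CpG and 11.2% (10.3% to 12.2%) at low-CpG promoters. Of the shared promoter peaks, 23.0% (19.1% to 27.5%) were at high-CpG and 56.8% (51.8% to 61.7%) at low-CpG promoters. The odds ratio for a high-CpG promoter was 0.104 (adjusted p = 1.40e-86). BCL6-specific promoter peaks lay between, with 46.4% (36.8% to 56.3%) at high-CpG promoters against 22.7% of shared promoter peaks at the BCL6 center (odds ratio 0.338, adjusted p = 1.06e-05).

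Counted by gene, 18.9% of the 21000 coding genes had a PPARα-specific peak in a promoter, 1.56% had a shared one and 0.414% a BCL6-specific one. Each gene took the highest CpG class among its coding TSSs, so its peak may lie in a promoter of a lower class. A PPARα-specific promoter peak was found at 29.2% of 10886 genes with a high-CpG promoter, at 13.5% of 3811 intermediate genes and at 4.39% of 6303 low-CpG genes. A shared promoter peak followed the opposite order, with 1.06% (0.881% to 1.27%) of high-CpG, 1.68% (1.32% to 2.14%) of intermediate and 2.36% (2.02% to 2.77%) of low-CpG genes. The BCL6-specific promoter peaks were at 0.441%, 0.761% and 0.159% of the genes of these classes.

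**Figure D3:**
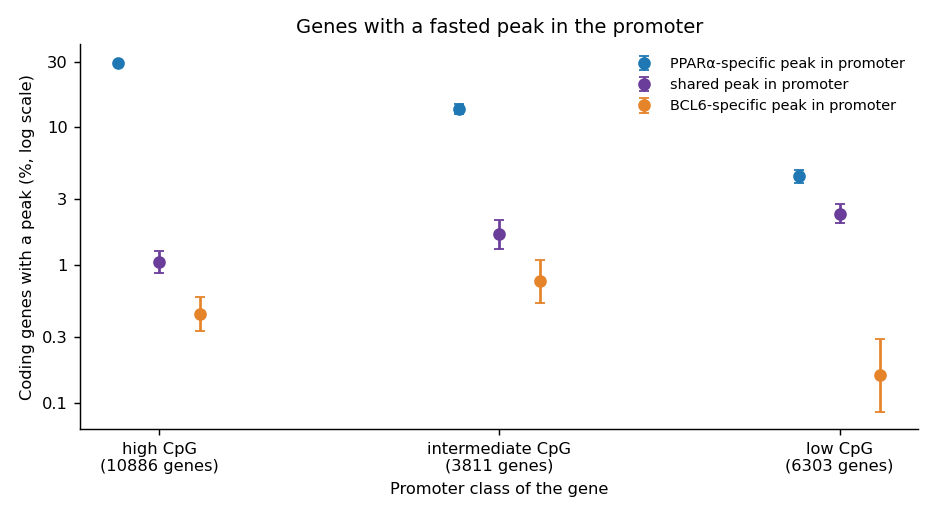
Share of coding genes with a fasted peak in a promoter, on a log scale, by CpG class and the class of the peak, with 95% Wilson intervals. The CpG class is the highest among the coding TSSs of the gene. PPARα-specific peaks go from 29.2% of high-CpG genes down to 4.39% of low-CpG genes, while shared peaks go from 1.06% up to 2.36%.

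The PPARα-specific peaks at high-CpG promoters were also less often present in fed liver. A fed PPARα peak was called at 27.5% (25.9% to 29.1%) of the PPARα-specific peaks in high-CpG promoters and at 50.9% (50.1% to 51.6%) of the other PPARα-specific peaks (odds ratio 0.365, adjusted p = 7.85e-129). For shared peaks in high-CpG promoters the fed share was 71.6% (61.4% to 80.0%). In low-CpG promoters the fed share was 62.1% (57.6% to 66.5%) for PPARα-specific and 90.8% (86.2% to 94.0%) for shared peaks.

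Named promoters give examples, and not all of them follow the split by CpG class. Shared peaks lay close upstream of the TSS at a set of liver genes with low-CpG promoters. These included *Fabp1* (55 bp), the liver fatty acid binding protein, *Pck1* (297 bp) and *G6pc* (154 bp), both enzymes of gluconeogenesis, *Cyp4a14* (77 bp), a fatty acid ω-hydroxylase, and *Nr0b2* (370 bp), the orphan receptor SHP. Shared peaks were also at the low-CpG promoters of the nuclear receptor genes *Nr1h4* (61 bp), *Nr1i2* (119 bp), *Nr5a2* (230 bp) and *Pparg* (289 bp). High-CpG promoters with a shared peak included *Acaa1b* (162 bp), a peroxisomal thiolase, the thioesterase genes *Acot1* (154 bp) and *Acot4* (66 bp), and *Socs2* (27 bp), a feedback inhibitor of growth hormone signaling, whose shared peak held a BCL6 element. The *Fabp1* promoter peak held DR1, and the *Acot1* and *Fabp1* promoter peaks also carried a fasted PPARδ peak.

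PPARα-specific promoter peaks included the mitochondrial enzymes *Acadm* (277 bp), *Acaa2* (126 bp), *Echs1* (159 bp) and *Decr1* (50 bp), the carnitine carrier *Slc25a20* (11 bp), the lipid droplet coat protein genes *Plin2* (23 bp), *Plin4* (151 bp) and *Plin5* (72 bp), the hormone gene *Fgf21* (59 bp) and *Pdk4* (219 bp), the kinase that inhibits pyruvate dehydrogenase. The *Echs1* and *Decr1* promoters were high-CpG, those of *Plin2*, *Plin4* and *Fgf21* low-CpG and the others intermediate. At all of these promoters no fasted BCL6 center lay in the promoter region.

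At other promoters the factors had separate peaks. Of the 87 genes with a BCL6-specific promoter peak, 30 (34.5%) also had a PPARα-specific peak in a promoter, as did 50 of the 328 genes with a shared promoter peak (15.2%) and 18.9% of all coding genes. Among the listed genes this held for *Nr1d1*, the clock repressor REV-ERBα, with 252 bp between the centers, *Acot12* (330 bp), *Ehhadh* (399 bp), the peroxisomal bifunctional enzyme, *Acot2* (407 bp) and *Acsl1* (571 bp), which activates long-chain fatty acids. The *Nr1d1*, *Acot12* and *Ehhadh* pairs lie between the limits of 200 and 400 bp, and would count as shared at the wider one. *Per3*, *Psmd3* and *Cyp4a32* had a BCL6-specific promoter peak and no PPARα peak in the promoter.

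The sequence under the peaks separated the classes outside promoters, that is, at distal peaks. Windows of 100 bp at the centers were searched for consensus sequences in either orientation, beside windows of the same length 1000 bp to either side. The BCL6 element was in 424 of 1780 distal BCL6-specific peaks (23.8%) and in 494 of 7352 distal shared peaks at the BCL6 center (6.72%), with an odds ratio of 4.34 (adjusted p = 1.21e-83 by the exact test, over 26 comparisons of elements). The windows to the side held it in 3.54% in both classes. At the PPARα center the element was in 4.98% of shared and 2.62% of PPARα-specific distal peaks (odds ratio 1.94, adjusted p = 5.19e-19), against 3.80% and 3.44% in the windows to the side. STAT elements, TTCNNNGAA, which the exact letters of the BCL6 element also match, followed it, with 19.0% of BCL6-specific and 6.24% of shared peaks (odds ratio 3.53).

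DR1 had the opposite order. It was in 1980 of 17306 distal PPARα-specific peaks (11.4%) and 668 of 7354 distal shared peaks (9.08%), an odds ratio of 0.773 (adjusted p = 9.01e-08), while the windows to the side held it in 1.57% and 1.67%. BCL6-specific distal peaks held DR1 in 4.27%, fewer than shared peaks at the BCL6 center with 7.26% (odds ratio 0.569, adjusted p = 5.45e-06). Elements were also placed differently within the peaks. In BCL6-specific distal peaks with a BCL6 element within 200 bp of the center, the nearest one had a median offset of 39 bp, against 69 bp in shared peaks. DR1 had median offsets of 38 bp in PPARα-specific and 42 bp in shared peaks.

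Both elements together were rare. At the PPARα center, 38 of 7354 shared distal peaks (0.517%) had a BCL6 element and DR1 in the same 100 bp. Of these 7354 peaks, 86.5% had neither by these letters. Both were in 52 of 17306 PPARα-specific distal peaks and in 20 of 1780 BCL6-specific ones (1.12%, 0.729% to 1.73%). At the BCL6 center the shared value was 38 of 7352 (0.517%, 0.377% to 0.709%), below that of BCL6-specific peaks. Whether these shares depart from what the single elements predict was not tested. Among BCL6-specific distal peaks 73.0% had neither, and among PPARα-specific distal peaks 86.2%. A missing match says only that these letters do not occur in the window.

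Consensus sequences of several liver transcription factors were more common in shared than in PPARα-specific distal peaks. The C/EBP sequence TTGCNNAA, bound by the C/EBP family of hepatocyte factors, was in 18.0% of shared and 11.8% of PPARα-specific distal peaks (odds ratio 1.64, adjusted p = 1.20e-35). It was in 12.9% of BCL6-specific peaks against 17.9% of shared peaks at the BCL6 center (odds ratio 0.678, adjusted p = 6.57e-07). HNF6 (TATTGAT) was in 6.60% of shared and 3.89% of PPARα-specific distal peaks (odds ratio 1.75, adjusted p = 2.33e-18), and FOXA (TGTTTAC) in 5.98% and 3.93% (odds ratio 1.56, adjusted p = 1.79e-11). Between BCL6-specific and shared peaks at the BCL6 center neither passed the test, with HNF6 in 7.30% and 6.90% (adjusted p = 0.579) and FOXA in 4.94% and 5.94% (adjusted p = 0.171). The glucocorticoid receptor sequence was searched as AGAACA and TGTTCT with a spacer of 3 bp and up to 2 mismatches. It was in 1.63% of shared and 1.13% of PPARα-specific distal peaks (odds ratio 1.45, adjusted p = 0.00384). BCL6-specific peaks held it in 0.674%, against 1.59% of shared peaks at the BCL6 center (odds ratio 0.420, adjusted p = 0.00430). The HNF4 sequence CAAAGTCCA was in 1.59% of shared and 1.43% of PPARα-specific distal peaks, which did not pass the test (adjusted p = 0.421). GGGCGGG, the GC box bound by SP1, was the reverse, with 0.408% of shared and 2.07% of PPARα-specific distal peaks (odds ratio 0.193, adjusted p = 3.92e-26). The windows to the side already differed for the GC box, with 0.585% and 1.25%. For C/EBP they held 4.22% and 3.83%, for HNF6 1.28% and 1.07% and for FOXA 1.28% and 1.45%. The median GC content at the center was 45.5% in shared and 48.5% in PPARα-specific distal peaks, and its part in these differences was not tested. The remaining sequences, CREB (TGACGTCA), ETS (CCGGAAGT), NRF1 (GCATGCGC) and YY1 (AAGATGGCG), were each in under 0.4% of distal peaks of every class, and of these only ETS passed the test between shared and PPARα-specific peaks (0.122% and 0.370%, adjusted p = 0.00158).

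**Figure D4:**
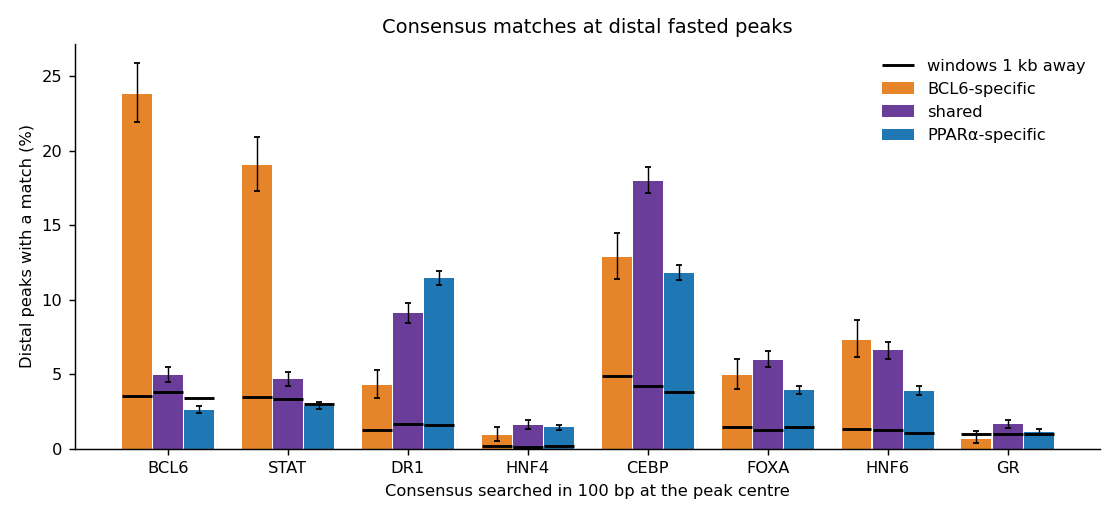
Share of distal fasted peaks with a consensus match in 100 bp at the center, by class, with 95% Wilson intervals and shared peaks counted at the PPARα center. Black lines give the share in windows 1000 bp to either side, which is 3.54% for the BCL6 element around BCL6-specific peaks that hold it in 23.8%.

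Inside promoters some of these differences were found again and others were not, in 13 comparisons that were added after the values were seen. C/EBP sequences were in 19.9% of 382 shared and 4.16% of 4043 PPARα-specific promoter peaks (odds ratio 5.73, adjusted p = 7.65e-25). HNF6 was in 4.19% and 0.519%, and HNF4, which had not passed at distal sites, in 2.62% and 0.495% (adjusted p = 7.20e-08 and 2.75e-04). The glucocorticoid receptor sequence, which had passed at distal sites, was in 1.05% and 0.445% and did not pass here (adjusted p = 0.137). The GC box was in 1.57% and 19.5% (odds ratio 0.0658, adjusted p = 5.05e-25) and ETS in 1.31% and 6.01% (adjusted p = 5.14e-05). DR1, less common in shared than in PPARα-specific peaks at distal sites, was here in 7.85% of shared and 3.86% of PPARα-specific peaks (odds ratio 2.12, adjusted p = 0.00130). This difference was not present in low-CpG promoters, where DR1 was in 7.83% of shared and 7.93% of PPARα-specific peaks. The shares were 7.79% and 5.41% in intermediate and 7.95% and 2.94% in high-CpG promoters. In BCL6-specific promoter peaks the BCL6 element was in 25 of 97 (25.8%, 18.1% to 35.3%), and in shared promoter peaks at the BCL6 center in 39 of 384 (10.2%, 7.52% to 13.6%). The GC content at the center had a median of 46.5% in shared and 63% in PPARα-specific promoter peaks. The part of GC content in these differences was not tested.

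Shared sites more often had peaks in the fed state as well. A fed PPARα peak lay within 200 bp of 89.7% (89.0% to 90.3%) of shared and 47.6% (46.9% to 48.3%) of PPARα-specific peaks, an odds ratio of 9.58 with p below 1e-300, the smallest value written. A fed BCL6 peak lay at 82.7% (81.9% to 83.5%) of shared and 67.0% (64.8% to 69.1%) of BCL6-specific peaks (odds ratio 2.36, adjusted p = 2.12e-47). Both factors had been called in fed liver at 76.9% of shared peaks and neither at 4.52%. Of the PPARα-specific peaks, 48.6% had no fed peak of either factor, and 19.8% had a fed BCL6 peak. Of the BCL6-specific peaks, 27.7% (25.7% to 29.8%) had a PPARα peak in fed liver although none was called at that distance in fasted liver. BCL6-specific distal peaks with a fed BCL6 peak held the BCL6 element in 26.6%, against 18.1% of those without (odds ratio 1.64, adjusted p = 9.23e-05). The depth of the libraries is unknown, and a peak missing from a list may have fallen short of the calling threshold.

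PPARδ, the closely related receptor that also binds DR1 with RXR, had fasted peaks chiefly where PPARα did. A fasted PPARδ peak lay at 10.9% (10.2% to 11.6%) of shared and 4.08% (3.83% to 4.36%) of PPARα-specific peaks (odds ratio 2.86, adjusted p = 9.97e-93), and at 11 of 1877 BCL6-specific peaks (0.586%, 0.328% to 1.05%). These shares depend on the size of the PPARδ list. In the longer fed list, with 7328 peaks, a PPARδ peak lay at 40.9% of shared, 14.8% of PPARα-specific and 4.32% of BCL6-specific peaks. Of the 2399 fasted PPARδ peaks, 34.8% had both BCL6 and PPARα, 36.6% PPARα alone, 10 peaks (0.417%) BCL6 alone and 28.2% neither. Distal peaks with fasted PPARδ held DR1 more often, in 15.7% against 8.27% of shared peaks without it (odds ratio 2.06, adjusted p = 3.32e-10) and in 19.7% against 11.1% of PPARα-specific peaks (odds ratio 1.97, adjusted p = 2.25e-11).

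For each peak the coding gene whose TSS was closest, at most 1 Mb away, was taken, without regard to expression. Shared peaks were nearest to 3785 of 21000 genes (18.0%), BCL6-specific peaks to 1581 (7.53%) and PPARα-specific peaks to 9162 (43.6%). PPARα-specific peaks alone marked 5531 genes, 2353 genes had shared and PPARα-specific peaks, and 804 had all 3 classes. Of the 1581 genes with a BCL6-specific peak, 878 also had a shared peak, and 229 genes had BCL6-specific peaks as their only class. Genes with much sequence around them collect more peaks. Over the whole genome there were 3.01 shared and 8.31 PPARα-specific peaks per Mb of assigned sequence. The gene lists below are set beside the shares above, and some also beside these densities.

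Genes of fatty acid and ketone metabolism had shared peaks above the background share. For ketone bodies this was 6 of 6 genes, with 3 shared peaks each at *Acat1* and *Bdh1*, at 32.3 shared peaks per Mb. In peroxisomal β-oxidation it was 8 of 13 genes (61.5%), led by *Crot* with 6 and by *Abcd2* and *Ehhadh* with 4 each. In mitochondrial β-oxidation it was 8 of 16 (50%), led by *Eci2* with 5 and *Acaa2* and *Hadh* with 4 each, while all 16 had a PPARα-specific peak. The acyl-CoA dehydrogenase genes *Acadl*, *Acads* and *Acadvl* and the trifunctional protein gene *Hadha* had PPARα-specific peaks and no BCL6 peak. Of the carnitine shuttle genes, 4 of 6 had a shared peak, with 3 at *Cpt1a*, the entry step of mitochondrial fatty acid oxidation, and 3 at *Slc22a5*, the carnitine importer, and none had a BCL6-specific one. In fatty acid uptake and activation it was 10 of 15 genes (66.7%), led by *Acsl1* with 9. In ω-oxidation it was 7 of 11 (63.6%), led by *Por*, the electron donor of cytochrome P450 enzymes, with 5. Shared peaks in these lists ran from 19.6 per Mb (mitochondrial β-oxidation) to 33.6 (carnitine shuttle), against 3.01 over the genome. PPARα-specific peaks were dense as well, from 29.0 per Mb (uptake and activation) to 50.4 (carnitine shuttle), against 8.31.

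Thioesterase genes followed less closely. Of the 13 *Acot* genes, which release free fatty acids from acyl-CoA, 5 had a shared peak (38.5%). These were *Acot12* with 4, *Acot1*, *Acot3* and *Acot4* with 3 each and *Acot5* with 1, all but the first in a tandem cluster where similar copies can lose uniquely mapped reads. Lipid droplet and lipase genes, taken as 1 list, had shared peaks at 7 of 18 (38.9%) and PPARα-specific peaks at 16 of 18 (88.9%).

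Genes of glucose production, hormone action and lipid synthesis also lay above the background. Shared peaks were at 6 of 8 gluconeogenic genes (75%), with 4 each at *Pck1*, *G6pc* and *Pcx*, at 50.5 per Mb. *Pck1* had 4 shared and 2 BCL6-specific peaks and no PPARα-specific peak. Of the insulin and growth hormone signaling genes 17 of 20 (85%) had a shared peak, led by *Irs2* with 16, *Pik3r1* with 15, *Foxo1* with 13 and *Igf1* with 10. This list has long territories, with a median of 0.101 Mb, and had 19.7 shared peaks per Mb. Among the 10 hepatokine genes, which encode proteins secreted by liver, 8 had a shared peak, and *Igfbp1* had 10 shared peaks and no peak of another class. The *Igfbp1* peaks ran from 63908 bp upstream to the promoter at 181 bp. Lipogenesis was divided within the list, with 9 of 16 genes sharing peaks (56.2%). *Elovl6* had 7, *Gpam* 6, and *Mlxipl*, the carbohydrate response factor ChREBP, and *Dgat2* 5 each. *Fasn*, *Acly*, *Acaca* and *Srebf1*, the core enzymes of fatty acid synthesis and their sterol-linked activator, had 4, 4, 3 and 7 PPARα-specific peaks and no BCL6 peak.

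Transcription factor genes had peaks of several classes. Shared peaks were at 11 of 17 nuclear receptor and coactivator genes (64.7%), 12 of 17 clock genes (70.6%) and 9 of 13 hepatocyte transcription factor genes (69.2%), at 13.4, 11.7 and 14.2 shared peaks per Mb. *Nr5a2* had 10 shared, 4 BCL6-specific and 16 PPARα-specific peaks, and *Foxa2* had 10, 1 and 10. *Hnf4a* had 6 PPARα-specific peaks and no BCL6 peak. At *Bcl6* there were 6 shared, 1 BCL6-specific and 9 PPARα-specific peaks, at *Ppara* 5, 1 and 12, and at *Rxra* 4, 0 and 13. *Ppard* had 2 PPARα-specific peaks.

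Genes known as BCL6 targets in lymphocytes had a shared peak at 5 of 18 (27.8%, against 18.0% of all coding genes) and a PPARα-specific peak at 14 of 18 (77.8%, against 43.6%). *Prdm1*, which drives plasma cell differentiation, had 3 BCL6-specific, 1 shared and 6 PPARα-specific peaks. *Il6* had a single BCL6-specific peak, 64717 bp upstream, that held a BCL6 element and was also called in fed liver. Of 12 genes of the BCL6 corepressor machinery, 4 (33.3%) had a shared peak and 4 (33.3%) a BCL6-specific one. Over all coding genes these shares were 18.0% and 7.53%. Both lists have long territories, with medians of 0.110 Mb for lymphocyte targets and 0.103 Mb for corepressor genes. The median over all coding genes was 0.0490 Mb. Per Mb, lymphocyte targets and corepressor genes had 6.06 and 6.63 shared peaks, against 3.01 over the genome. Their PPARα-specific peaks came to 16.1 and 12.7 per Mb, against 8.31. *Tbl1xr1*, a subunit of the SMRT and NCoR complexes, had 17 shared peaks, the most of any gene, over an assigned territory of 1.85 Mb, and *Bcor*, a corepressor that binds BCL6 directly, had 5 BCL6-specific peaks, also the most.

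Among genes used in most tissues, the ribosomal and complex I lists had shared peaks at a smaller share of genes than the background of 18.0%, and PPARα-specific peaks at a share near 43.6%. For cytosolic ribosomal proteins these were 12.5% and 47.5% of 80 genes, for mitochondrial ribosomal proteins 8.97% and 44.9% of 78, and for respiratory complex I 8.11% and 45.9% of 37. These genes have short territories, with medians of 0.0219, 0.0255 and 0.0230 Mb against 0.0490 Mb for all coding genes. Per Mb they had 2.50, 1.63 and 1.98 shared peaks against 3.01 over the genome, so that the cytosolic ribosomal genes were closer to the background by density than by share of genes. Complex I genes had no BCL6-specific peak. PPARα-specific peaks were in the promoters of 35%, 30.8% and 35.1% of these lists, against 18.9% of all coding genes. Genes with a high-CpG promoter made up 92.5%, 88.5% and 94.6% of these lists and 51.8% of all genes. Proteasome genes had a shared peak at 12 of 48 genes (25%, against 18.0% of all coding genes). A PPARα-specific peak was at 56.2%, against 43.6%. They had 6.94 shared peaks per Mb, and the difference from all coding genes was not tested. A PPARα-specific promoter peak was at 22.9%, against 18.9% of all coding genes and 29.2% of genes with a high-CpG promoter. Such genes made up 75% of the proteasome list. For comparison, olfactory receptor genes had a shared peak at 0.994% and a PPARα-specific peak at 1.81% of 1107 genes. Keratin genes had them at 2.04% and 20.4% of 49. Median territories were 0.0224 Mb for olfactory receptor and 0.0244 Mb for keratin genes. Per Mb, olfactory receptor genes had 0.517 shared and 0.638 PPARα-specific peaks. Keratin genes had 0.844 and 15.2, against 3.01 and 8.31 over the genome.

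**Figure D5:**
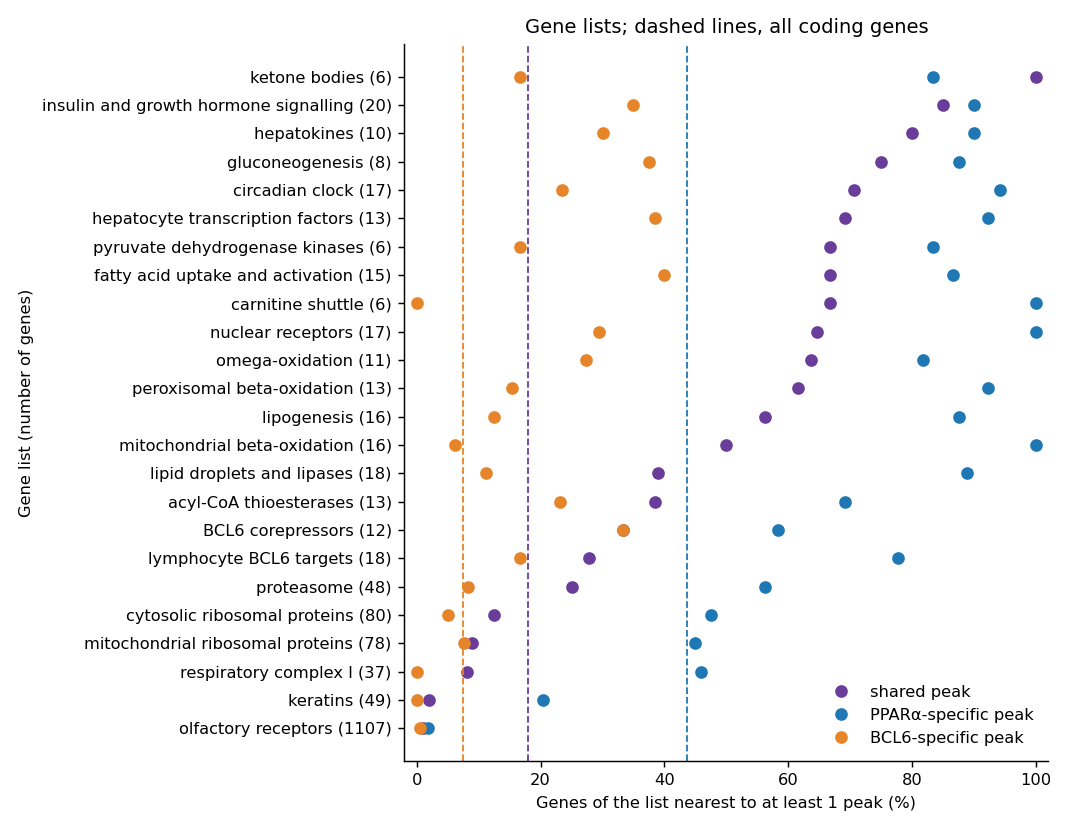
Share of genes in each list that are nearest to at least 1 shared, PPARα-specific or BCL6-specific fasted peak, with the number of genes in parentheses and dashed lines at 18.0%, 43.6% and 7.53% of all coding genes. Ketone body genes are all nearest to a shared peak, while the ribosomal, complex I, keratin and olfactory receptor lists lie below the shared background.

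By number of peaks, shared sites were led by *Tbl1xr1* with 17, *Adgrl2* and *Irs2* with 16, *Pik3r1* with 15 and *Lpp* with 14. *Irs2*, the insulin receptor substrate of liver, held its 16 in 0.579 Mb, or 27.6 per Mb. BCL6-specific peaks never exceeded 5 a gene, and *Ces1c*, a carboxylesterase gene, had 4 within 0.0589 Mb. Among PPARα-specific sites *Gse1*, *Nfia*, *Rreb1* and *Sox9* each had 22 peaks, and *Arid1b* had 21. *Gse1* differed from the other 4 in that it had no fasted BCL6 peak, in a territory of 0.230 Mb, whereas *Nfia* had 10 shared and 3 BCL6-specific peaks and *Sox9* had 9 and 2.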

How the data were processed

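ChIP-seq of BCL6 and PPARα used crosslinked liver, with 3 replicates per group, and input chromatin. Per the methods, the authors aligned reads with Bowtie to mm10, kept uniquely mapped reads and a single read per start position, pooled the replicates to call peaks in HOMER over input, and filtered these by DESeq2 on the single libraries. The deposited lists give chromosome, start and end only, with no count or score, so depth and replicate error are unknown and list order was not used.

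Peak centers were matched here within 200 bp. TSSs came from 45756 curated RefSeq transcripts of GRCm38, and 21000 coding genes were used. Shares carry 95% Wilson intervals. Fisher's exact test (two-sided) compared classes, with Benjamini-Hochberg correction of p-values in families of 19, 26 and 13, the last added after values were seen. The members, gene lists, elements and tests were chosen with earlier results of these data known. Named genes were, in each list, up to 4 with the most shared peaks, those with BCL6-specific and no shared peaks and those with a BCL6 promoter peak, the 5 with the most peaks per class (ties by symbol), and *Bcl6*, *Ppara*, *Ppard* and *Rxra*. Other genes were named after their values were seen. Printed windows were those nearest to a TSS, outside exons, and some that qualified are not printed. Functions were tested on simulated data. Alternatives covered distance, chromosomes, promoters, CpG classes, windows, masking, mismatches and gene assignment. Every list member was found in the annotation. Computation used SciPy 1.17.1 and NumPy 2.4.6 under Python 3.11.15, and Matplotlib 3.10.9 drew the plots. No column of sample values was left unused (0), and 1 further BCL6 list, from fed floxed mice, was not used. The remaining samples of the series were not analysed here. Some genes that the rule names are not reported here.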

Additional observations from a re-analysis of the deposited data

How the results depend on the processing

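Of 67 combinations of result and setting, 60 kept their direction and their side of the threshold, or stayed within the stated range. The share of BCL6 peaks with PPARα was 75.8% at a center distance of 100 bp and 82.1% at 400 bp, and the share of PPARα peaks with BCL6 was 25.1% and 27.1%. The promoter share of shared against BCL6-specific peaks had an odds ratio of 0.790 at 100 bp, of 1.11 at 400 bp and of 0.869 with promoters from 5000 bp upstream to 1000 bp downstream (Fisher's exact p = 0.0499). Its direction thus depended on the distance. The promoter odds ratio of shared against PPARα-specific peaks stayed between 0.208 and 0.384, that of the BCL6 element between 3.83 and 8.13 and that of DR1 between 0.520 and 0.892. The number of genes with a shared peak lay between 3454 and 3836. No paired analysis was possible because each list combines its 3 replicates, and for the same reason no replicate could be left out. The unknown depth limits every statement on a missing peak.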
